A study of Mus musculus with 6 samples.

Results

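Transforming growth factor beta (TGF-β) is a small family of secreted cytokines that are kept inactive in the tissue, and the genes described here are its 3 ligands (Tgfb1, Tgfb2 and Tgfb3), its 3 receptors (Tgfbr1, Tgfbr2 and Tgfbr3) and the 4 latent TGF-β binding proteins (Ltbp1, Ltbp2, Ltbp3 and Ltbp4) in cancer-associated fibroblasts (CAFs) of mouse colon tumors. They were chosen by name, as the rows of the expression table whose gene symbol is one of these, which gave 10 of 49548 genes. No rule on measured values was used, although earlier results of these data were known when the genes were chosen.

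Each ligand is made with a propeptide that stays wrapped around it, and in most cells this latent complex is bound to a latent binding protein that anchors it on fibrillin and fibronectin fibers of the extracellular matrix. Integrins and proteases free the ligand, which then binds the type 2 receptor (Tgfbr2). That receptor phosphorylates the type 1 receptor (Tgfbr1), which activates the Smad transcription factors, while Tgfbr3 (betaglycan) is a co-receptor that presents ligand, TGF-β2 in particular, to Tgfbr2. In the colon, TGF-β restrains growth of the normal epithelium and drives fibroblasts towards a contractile, matrix-producing state.

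The study compared CAFs with and without the activity of Col6a1-Cre, to ask how the Col6a1-expressing subset differs from the other mesenchymal cells of the same tumors. All mice were Col6a1-Cre;Rosa26-mTmG on a C57/BL6 background and carried AOM/DSS adenomas, a model of cancer that follows colitis, in which the carcinogen azoxymethane (AOM) was injected at 8 to 10 weeks of age and was followed by 3 cycles of 2.5% dextran sodium sulfate (DSS) in the drinking water, each with 14 days of regular water. Cells negative for CD45, EpCAM, CD31 and Ter119 were sorted by color, GFP+ for Col6a1+ CAFs and Tomato+ for Col6a1− CAFs, and each of the 3 libraries per group came from tumors pooled over 5 to 6 mice. Genotype and treatment are shared by both groups, there is no untreated or normal tissue among the libraries used here, and GFP marks every cell in which Col6a1-Cre is or once was active, whatever its present Col6a1 level.

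The values are 3′ end read counts per gene, scaled between libraries by the authors and called normalized counts here. They sum to between 3039152 and 3425249 per library. Genes with at least 1 normalized count numbered 14530 in Col6a1+ replicate 1 and 18770 to 20511 in the other 5 libraries, so the first has the least complete coverage of low genes. Col6a1 itself was at 861, 1287 and 1941 normalized counts in the Col6a1+ libraries and at 182, 321 and 102 in the Col6a1− libraries, which goes with the labels. All values are from bulk RNA of sorted cells, in which fewer cells of a type and less RNA per cell cannot be told apart.

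Markers of other cells moved with the groups. Calls were made in limma where the Benjamini-Hochberg adjusted p, over the 26402 genes that had any count, was under 0.05. All 10 of 10 pericyte markers were called higher in Col6a1+ CAFs, with summed levels of 41829 to 91448 normalized counts against 1150 to 2142. Of 6 general fibroblast markers, 4 were called higher, with sums of 37468 to 41177 against 6799 to 13785. Of 10 epithelial markers, 7 were called lower, with sums of 5471 to 5819 against 18864 to 30928 and with Epcam and Cdh1 among them, although EpCAM+ cells had been removed. Smooth muscle markers were called higher in 5 of 7, telocyte markers in 3 of 5, and trophocyte markers lower in 2 of 5. Sums of 7 endothelial markers were 148 to 286 against 203 to 470, those of 11 immune markers 55 to 88 against 300 to 521 (S100a8 called lower), and those of 4 glial markers 50 to 73 against 19 to 52. Erythroid marker sums were 110 to 1710 against 279 to 467. Of the platelet markers, Gp9 was at 0 in every library and Pf4 stood at 2222 in Col6a1− replicate 3 against 5 to 82 in the other 5 libraries. The part of these differences in the results below was not tested. What was measured is how the TGF-β genes stand relative to the 6 fibroblast markers, by centring each library on their mean log2 value, and this is given beside the results as fibroblast marker scaling. Centring takes the same amount from every gene of a library, so that a gene near 0 counts in both groups moves below 0 by construction.

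In Col6a1+ CAFs the TGF-β genes that were called were the ligands Tgfb2 and Tgfb3 and the binding protein Ltbp1, all higher, and none of the 10 was called lower. Over all 26402 genes tested, 2.66% were called higher and 1.96% lower. All 10 members have a mean normalized count of 10 or more. In the fit restricted to the 13515 genes that reach it, Tgfb2, Tgfb3 and Ltbp1 were again called, against 6.03% called higher and 4.5% lower. The median log2 fold change of the 10 genes was 1.30, against −0.27 over all genes tested and −0.15 over these 13515, and 8 of the 10 were above 0. In 6 of the 10 the lowest Col6a1+ library exceeded the highest Col6a1− library, an arrangement seen in 7.91% of all genes tested and in 14.2% of the 13515 better-covered genes (mean normalized count of 10 or more), to which all 10 members belong. Blocking on the replicate number left no gene called in the whole table, and among the better-covered genes it called 4 of the 10 members higher (the 3 above and Tgfbr2) and none lower, against 7.26% and 6.44% of those genes. Relative to fibroblast markers the picture was another: 3 of the 10 genes were above 0 and 7 below, the median was −0.38, and the calls were Tgfb2 higher and Tgfbr1 and Tgfbr3 lower, against 0.894% of all genes called higher and 64.5% called lower on that scale, whose median over all genes was −1.94.

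**Figure D1:**
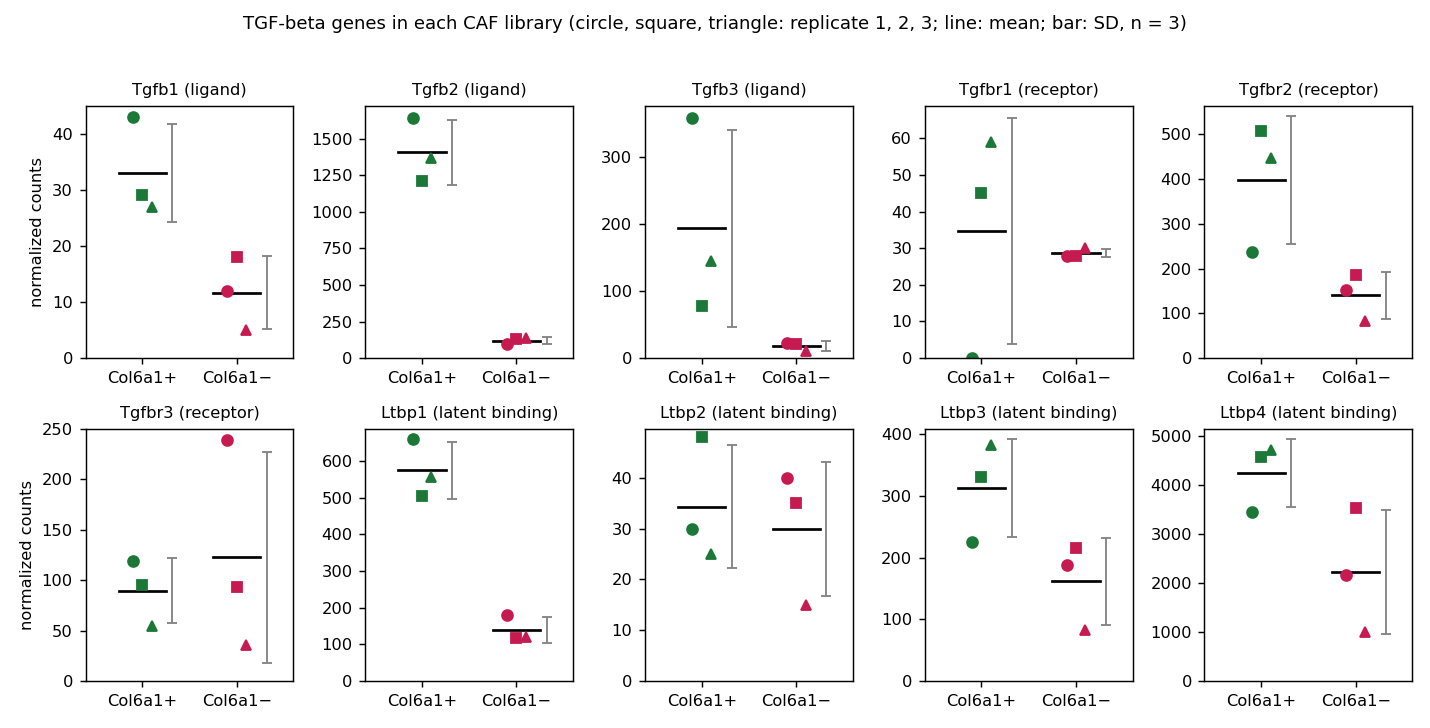
Normalized counts (y axis, linear, its own scale for each gene) of the 10 TGF-β genes in the 3 Col6a1+ and 3 Col6a1− CAF libraries (x axis), with 1 symbol per replicate, the mean as a line and the SD as a bar. Tgfb2 (1207 to 1643 against 96 to 135) and Ltbp1 (506 to 660 against 116 to 181) are set far apart, while Tgfbr1, Tgfbr3, Ltbp2 and Ltbp4 overlap between the groups.

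The promoters of Tgfb2 and Ltbp1 are shown as the start regions of the members that were called in most alternative fits. The sequences are from RefSeq (GRCm38.p6, the assembly called mm10), 300 bases each, 250 before the start site and 50 from it, written 5′ to 3′ on the strand of the gene. Capitals mark CAGAC, the Smad-binding box, on either strand (GTCTG where it lies on the opposite strand). Tgfb2 has 1 entry, at chr1:186705940-186706239 on the minus strand. Ltbp1 has an upstream one at chr17:75005279-75005578 and a downstream one at chr17:75178531-75178830, both on the plus strand, and 3′ end reads do not tell which of these starts was used.
Tgfb2: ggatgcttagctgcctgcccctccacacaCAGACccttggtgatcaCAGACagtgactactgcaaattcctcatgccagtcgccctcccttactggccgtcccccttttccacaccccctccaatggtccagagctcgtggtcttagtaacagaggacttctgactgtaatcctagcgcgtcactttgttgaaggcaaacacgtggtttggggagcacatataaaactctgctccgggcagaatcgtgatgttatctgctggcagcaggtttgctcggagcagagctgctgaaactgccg
Ltbp1 upstream: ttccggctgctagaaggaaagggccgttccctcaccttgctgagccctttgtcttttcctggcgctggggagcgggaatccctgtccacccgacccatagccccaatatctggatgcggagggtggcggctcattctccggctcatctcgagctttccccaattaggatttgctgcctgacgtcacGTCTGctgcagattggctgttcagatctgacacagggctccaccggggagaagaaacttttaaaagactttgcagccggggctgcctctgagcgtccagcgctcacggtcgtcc
Ltbp1 downstream: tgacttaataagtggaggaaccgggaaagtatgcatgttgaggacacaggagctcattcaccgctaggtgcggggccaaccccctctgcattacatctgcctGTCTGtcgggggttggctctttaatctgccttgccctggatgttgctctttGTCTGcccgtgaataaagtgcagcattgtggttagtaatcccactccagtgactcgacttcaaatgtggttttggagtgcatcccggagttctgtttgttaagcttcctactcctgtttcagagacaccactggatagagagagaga

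The Tgfb2 window holds 2 Smad boxes, the upstream Ltbp1 window 1 and the downstream Ltbp1 window 2. A box of 5 bases is frequent: 49.6% of 32851 RefSeq promoters of this length hold at least 1. None of the 3 windows holds TGGGAA (the core of the site of RBPJ, the Notch pathway's DNA-binding factor, present in 25.6% of all promoters), GGGCGG (the GC box, in 35.7%) or a CArG box (the site of serum response factor, in 1.63%), searched on both strands. These are letter matches and not measured sites. The base composition differs within the ligands: GC makes up 54.3% of the Tgfb2 window and 77% of that of Tgfb1, which holds 6 GC boxes, against a median of 52.7% over all promoters. No promoter entry was given for Tgfb3 or Tgfbr3.

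Tgfb2 was the member with the largest difference. It encodes TGF-β2, the isoform that depends most on betaglycan for binding to its receptors, and lies at chr1:186622792-186705989 on the minus strand (ENSMUSG00000039239, coordinates of mm10 throughout). Its normalized counts were 1643, 1207 and 1366 in the Col6a1+ libraries and 96, 130 and 135 in the Col6a1− libraries. The lowest Col6a1+ library was thus far above the highest Col6a1− library. The means were 1405 ± 221 and 120 ± 21.2 (SD, n = 3 each), and the log2 fold change was 3.54 (SE 0.29, 95% interval 2.90 to 4.18), or 11.6-fold, with a limma adjusted p of 3.56e-04. Relative to the fibroblast markers it was still higher, by 1.87 on the log2 scale (limma adjusted p = 0.0026). A fit that blocks on the replicate number, in which no gene of the table passed, gave it a limma adjusted p of 0.0612, and the same blocked fit restricted to better-covered genes (mean of 10 or more) gave 0.00103. The antisense gene Gm29491, which overlaps Tgfb2 and whose reads could be mistaken for it if strand was ignored, was at 0 to 3 normalized counts.

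Tgfb3, which encodes the isoform best known from palate and lung development, is at chr12:86056744-86079041 on the minus strand (ENSMUSG00000021253). Its normalized counts were 358, 77 and 145 in Col6a1+ CAFs and 23, 21 and 10 in Col6a1− CAFs. The groups did not overlap, but the Col6a1+ libraries spread widely, with replicate 1 the highest. With means of 193 ± 147 and 18 ± 7 (SD, n = 3 each), the log2 fold change was 3.15 (SE 0.62, 95% interval 1.78 to 4.52), an 8.90-fold difference with a limma adjusted p of 0.0174. This call was less stable than that of Tgfb2: it was held in 8 of 17 alternative fits, with adjusted p between 0.00985 and 0.183, and of the 6 fits that each leave out a library it was held in the one without Col6a1+ replicate 2 (limma adjusted p = 0.0410) and lost in the others, for instance at 0.0592 without Col6a1+ replicate 1, where the log2 fold change was 2.57. With the replicate block its limma adjusted p was 0.0933 in all genes and 0.00985 among better-covered genes, and relative to the fibroblast markers its log2 fold change was 1.48 (limma adjusted p = 0.0614). The plus-strand gene Ttll5 runs through its 3′ end and was at 85, 45 and 36 against 48, 49 and 54 normalized counts, an amount that bears on the Tgfb3 values if reads were counted without regard to strand.

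Tgfb1 encodes the most widely expressed isoform, at chr7:25687002-25705077 on the plus strand (ENSMUSG00000002603). It was low in these libraries, at 43, 29 and 27 normalized counts in Col6a1+ CAFs and 12, 18 and 5 in Col6a1− CAFs. The groups did not overlap. The log2 fold change of 1.55 (SE 0.72, 95% interval −0.06 to 3.15) did not pass the test (limma adjusted p = 0.331), and relative to the fibroblast markers it was −0.13. Its low counts limit the precision of this comparison.

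Summed over the 3 ligand genes, there were 2044, 1313 and 1538 normalized counts in Col6a1+ and 131, 169 and 150 in Col6a1− CAFs. Tgfb2 gave most of the ligand counts in every library, 87.0% ± 5.97 in Col6a1+ and 80.1% ± 8.79 in Col6a1− CAFs (SD, n = 3 each), and this share did not differ beyond the spread (exact two-sided permutation test over libraries, p = 0.3, adjusted over 3 shares 0.45). The share of Tgfb1 was lower in each Col6a1+ library (1.76% to 2.21%) than in any Col6a1− library (3.33% to 10.7%). Its exact p was 0.1, the smallest that 3 against 3 libraries allow, and 0.3 after adjustment. Tgfb3 made up 10.9% ± 5.97 and 12.2% ± 5.45 (exact permutation p = 0.7). A share is free of the scaling between libraries, but 3′ end counts do not compare the genes with each other, as each has its own 3′ end and priming.

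**Figure D2:**
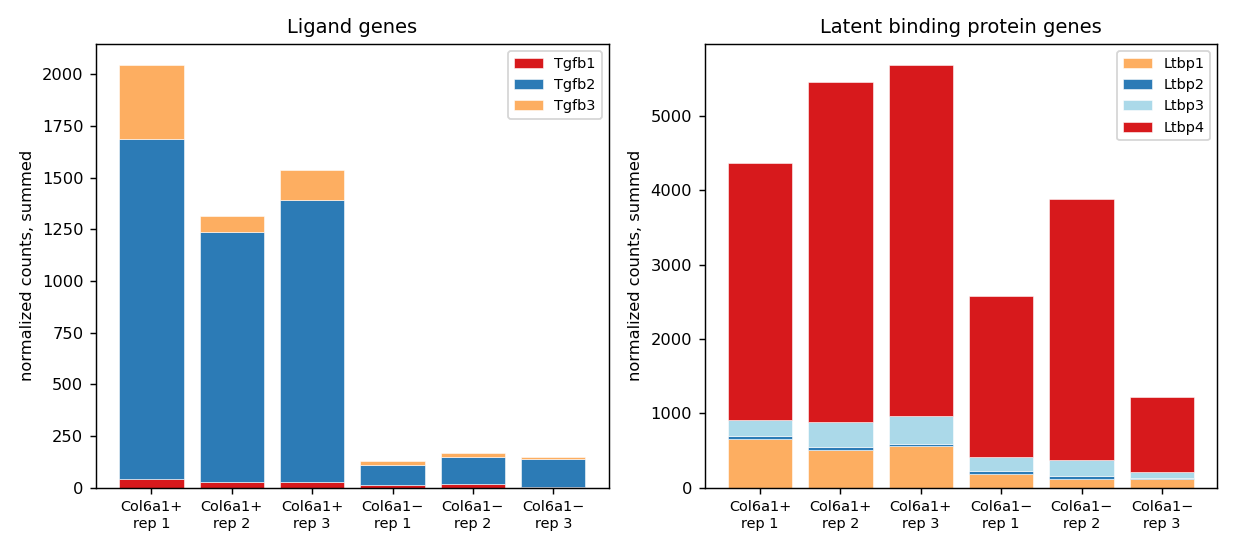
Normalized counts stacked by gene (y axis, linear from 0) in each of the 6 CAF libraries (x axis), for the ligand genes on the left and the latent binding protein genes on the right. Ligand sums are 1313 to 2044 in Col6a1+ and 131 to 169 in Col6a1− libraries, while the binding protein sums are 4369 to 5680 and 1217 to 3886.

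No receptor gene was called. Tgfbr2, the ligand-binding type 2 receptor at chr9:116084293-116175360 on the minus strand (ENSMUSG00000032440), came closest. Its normalized counts were 236, 508 and 447 in Col6a1+ CAFs and 153, 186 and 83 in Col6a1− CAFs, so the groups did not overlap. The means were 397 ± 143 and 141 ± 52.6 (SD, n = 3 each) and the log2 fold change was 1.49 (SE 0.42, 95% interval 0.57 to 2.42, limma adjusted p = 0.0746). It passed in 1 of 17 alternative fits, the one with the replicate block among better-covered genes (limma adjusted p = 0.0354). Relative to the fibroblast markers its log2 fold change was −0.18 (limma adjusted p = 0.757).

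Tgfbr1, the kinase that phosphorylates Smad2 and Smad3, is at chr4:47353222-47414931 on the plus strand (ENSMUSG00000007613). Its normalized counts were 0, 45 and 59 in Col6a1+ CAFs and 28, 28 and 30 in Col6a1− CAFs. One Col6a1+ library was below, and the other two above, the tight Col6a1− values. The log2 fold change of −1.08 (SE 1.34, 95% interval −4.04 to 1.88, limma adjusted p = 0.649) rests on the listed 0 in Col6a1+ replicate 1, the library with the fewest genes detected. Before scaling, a count of 0 allows up to 3 reads by sampling alone. How many normalized counts these would be is not known, as the read depth behind the scaled values is not known. Without Col6a1+ replicate 1 the log2 fold change was 0.83 (limma adjusted p = 0.276). Relative to the fibroblast markers it was −2.75 (limma adjusted p = 0.0159), with the same library included, on a scale whose median over all genes was −1.94.

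Tgfbr3 (betaglycan) is at chr5:107106570-107289629 on the minus strand (ENSMUSG00000029287). It was at 119, 95 and 55 normalized counts in Col6a1+ CAFs and at 239, 93 and 36 in Col6a1− CAFs, with both the highest and the lowest value among the latter. The log2 fold change was −0.12 (SE 0.63, 95% interval −1.52 to 1.28, limma adjusted p = 0.930), an interval wide in both directions. Its sign turned without Col6a1+ replicate 3 (0.19) or without Col6a1− replicate 1 (0.55). Relative to the fibroblast markers its log2 fold change was −1.80 (limma adjusted p = 0.0135). The median over all genes on that scale was −1.94, and 64.5% of them were called lower, so the call does not set Tgfbr3 apart from other genes. The co-receptor for TGF-β2 showed no difference detectable on the authors' scale in the libraries in which Tgfb2 was higher.

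Among the latent binding proteins, Ltbp1 was called. It binds the latent complex and deposits it on fibronectin and fibrillin fibers, and its gene is at chr17:75005568-75392512 on the plus strand (ENSMUSG00000001870). Its normalized counts were 660, 506 and 558 in Col6a1+ CAFs and 181, 116 and 121 in Col6a1− CAFs. The replicates lay close together and the groups far apart. The means were 575 ± 78.3 and 139 ± 36.2 (SD, n = 3 each), and the log2 fold change was 2.06 (SE 0.31, 95% interval 1.37 to 2.75), or 4.16-fold, with a limma adjusted p of 0.00528. The call was held in 11 of 17 alternative fits. It was lost without a filter on low genes (limma adjusted p = 0.0656), without any 1 of the Col6a1− libraries (limma adjusted p = 0.0580, 0.0615 and 0.0740), with the replicate block over all genes (0.0612, against 0.0031 with the block among better-covered genes), and relative to the fibroblast markers, where the log2 fold change was 0.38 (limma adjusted p = 0.503).

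Ltbp3 and Ltbp4 were higher on average without passing the test. Ltbp3, at chr19:5740904-5758532 on the plus strand (ENSMUSG00000024940), is a latent binding protein known from bone and tooth. It was at 226, 330 and 383 normalized counts against 188, 215 and 82, without overlap, and its log2 fold change was 1.03 (SE 0.42, 95% interval 0.10 to 1.96, limma adjusted p = 0.242).

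Ltbp4, at chr7:27305136-27337692 on the minus strand (ENSMUSG00000040488), also takes part in elastic fiber assembly. It was at 3453, 4573 and 4714 normalized counts in Col6a1+ CAFs and 2164, 3520 and 999 in Col6a1− CAFs. Col6a1− replicate 2 reached above the lowest Col6a1+ library, and the log2 fold change was 1.10 (SE 0.42, 95% interval 0.17 to 2.02, limma adjusted p = 0.206). Relative to the fibroblast markers Ltbp3 and Ltbp4 were at −0.64 and −0.58 on the log2 scale.

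Ltbp2, at chr12:84783212-84876532 on the minus strand (ENSMUSG00000002020), stands apart within the family because it does not bind latent TGF-β. It was at 30, 48 and 25 normalized counts in Col6a1+ CAFs and 40, 35 and 15 in Col6a1− CAFs, in full overlap. The log2 fold change was 0.25 (SE 0.61, 95% interval −1.10 to 1.6, limma adjusted p = 0.838). Within the binding protein counts, the share of Ltbp1 was 11.4% ± 3.22 against 6.65% ± 3.49 and that of Ltbp2 0.669% ± 0.220 against 1.23% ± 0.327 (SD, n = 3 each), with exact permutation p of 0.3 and 0.1 (adjusted over 4 shares 0.5 and 0.4) in a design that cannot go below 0.1. Ltbp4 made up 81.9% ± 2.55 and 85.6% ± 4.44 of these counts and Ltbp3 5.99% ± 0.787 and 6.53% ± 0.906 (exact permutation p = 0.4 and 0.5).

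**Figure D3:**
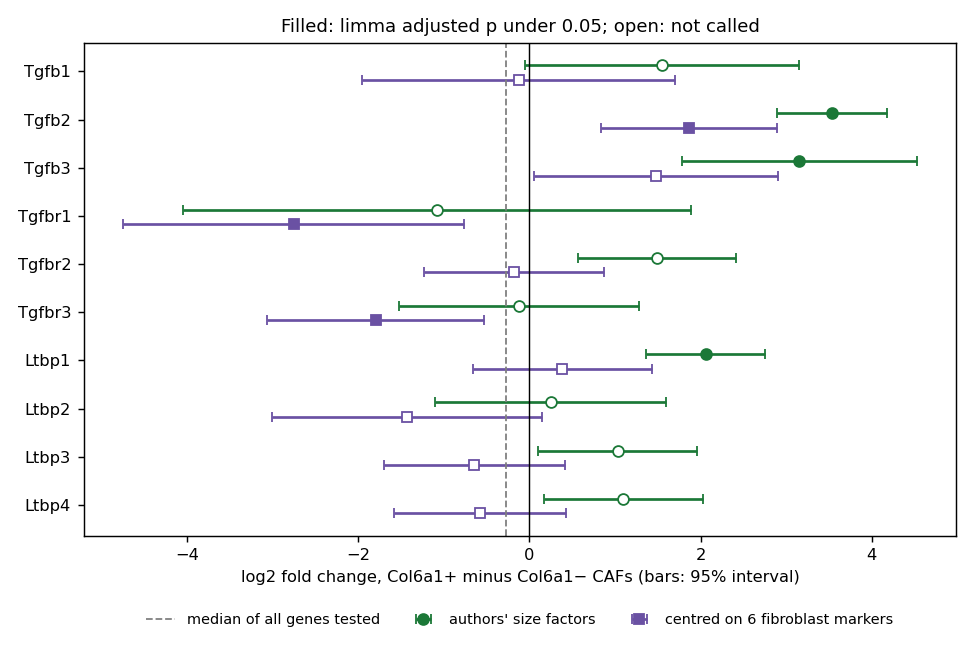
Log2 fold change of Col6a1+ over Col6a1− CAFs (x axis) for each of the 10 TGF-β genes (y axis) with its 95% interval, on the authors' scale (circles) and after centring on 6 fibroblast markers (squares), filled where the limma adjusted p was under 0.05. Tgfb2 is filled on both scales (3.54 and 1.87), Tgfb3 and Ltbp1 on the authors' scale alone, and Tgfbr1 and Tgfbr3 below 0 on the fibroblast marker scale alone. On the fibroblast marker scale 64.5% of all genes tested were called lower.

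The surroundings of the ligand were described with 5 lists of pathway genes, with 73 distinct genes in 77 entries. On the authors' scale 23 of the 73 were called higher and none lower, with a median log2 fold change of 1.02, against the 2.66% and 1.96% and the median of −0.27 of all genes tested. The fit restricted to better-covered genes also called 23 higher and none lower, against 6.03% and 4.5% of those genes. With the replicate block none of the 73 was called, and unadjusted p fell under 0.05 in 1851 genes of the whole table that were higher and 2567 that were lower. The same block among better-covered genes called 31 of the 73 higher and none lower, against the 7.26% and 6.44% given above. On the fibroblast marker scale 7 were called higher and 23 lower, against 0.894% and 64.5% of all genes tested on that scale. These lists hold collagens and contractile genes that also serve as markers of fibroblasts and smooth muscle (Col1a1, Col1a2, Col3a1, Dcn and Acta2), so their counts move with the marker sums given above.

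Of 15 genes of latency and activation, 6 were called higher. The largest difference was in Lrrc32 (GARP), a membrane protein that tethers latent TGF-β on the cell surface. It was at 1017, 655 and 2841 normalized counts against 39, 75 and 8, and its log2 fold change was 5.36 (SE 0.74, limma adjusted p = 0.00338), or 3.69 relative to the fibroblast markers. Integrin subunits that pair with the αv chain to bind latent TGF-β had values on both sides of 0. Itgb3 was at 1256, 300 and 2608 against 142, 111 and 84 (log2 fold change 3.17), and Itgb5 at 836, 858 and 968 against 169, 183 and 84 (2.68). In contrast, Itgb6 had 1, 10 and 16 normalized counts against 14, 58 and 29, and Itgb8 had 0, 8 and 4 against 20, 15 and 16, with log2 fold changes of −2.05 and −2.33 that did not pass (limma adjusted p = 0.350 and 0.312). The αv chain itself, Itgav, was at 118, 260 and 409 against 76, 169 and 239 (log2 fold change 0.67, limma adjusted p = 0.603). The other genes called higher were Itgb1 (1.88), the common integrin β1 chain, the procollagen protease Bmp1 (1.51), which also cleaves Ltbp1, and the gelatinase Mmp9 (2.57). Relative to the fibroblast markers Lrrc32 and Itgb3 (1.49) kept their calls, and Itgb5 (1.00), Mmp9 (0.89), Itgb1 (0.21) and Bmp1 (−0.16) lost theirs. The protease Mmp14 (1.19) was not called (limma adjusted p = 0.333) but passed with the replicate block among better-covered genes (0.0194).

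Of 10 matrix partners of the latent complex, 4 were called higher. They were the microfibril genes Fbn1 (790, 717 and 631 against 202, 243 and 60 normalized counts, log2 fold change 2.30) and Fbn2 (87, 124 and 103 against 12, 14 and 13, 2.90), elastin (Eln, 1952, 1087 and 1052 against 209, 264 and 117, 2.80) and fibronectin (Fn1, 1.31). All 4 had groups without overlap, an arrangement seen in 14.2% of better-covered genes. As these 4 were picked by their calls in the same libraries, this adds no separate evidence. The microfibril-associated Mfap5 was at 3, 29 and 21 against 90, 95 and 35 normalized counts, with a log2 fold change of −2.30 that did not pass (limma adjusted p = 0.170), and Mfap2 was at 1.33 (limma adjusted p = 0.442). Relative to the fibroblast markers the call of Eln was held (1.13, limma adjusted p = 0.0464) and those of Fbn1 (0.62), Fbn2 (1.23) and Fn1 (−0.36) were not.

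Of 10 accessory receptors and binding proteins, 3 were called higher: Eng (endoglin), a co-receptor of vascular cells, Vasn (vasorin), which binds TGF-β outside the cell, and Aspn (asporin), a small leucine-rich proteoglycan that binds it in the matrix. Aspn was at 619, 419 and 474 normalized counts against 58, 51 and 30 (log2 fold change 3.45, SE 0.37, limma adjusted p = 0.0013), and was still higher relative to the fibroblast markers (1.77). Eng was at 331, 266 and 156 against 32, 92 and 45 (2.21), and Vasn at 277, 348 and 254 against 94, 63 and 81 (1.88), and both lost their calls relative to the fibroblast markers (0.53 and 0.20, limma adjusted p = 0.415 and 0.742). Bambi, a pseudoreceptor that blocks signalling, was at 0, 36 and 13 against 115, 39 and 54, and its log2 fold change of −2.98 did not pass (limma adjusted p = 0.224). The proteoglycan Bgn, at 1.62, did not pass either (limma adjusted p = 0.0695), but did with the replicate block among better-covered genes (0.0148).

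Of 15 genes of Smad signalling, 1 was called, the Smad co-repressor Ski, at 879, 642 and 904 normalized counts against 285, 293 and 265 (log2 fold change 1.51, limma adjusted p = 0.0130). It was not called relative to the fibroblast markers (−0.17). That count of 1 in 15, from the fit on all genes, is near the 6.03% of better-covered genes called higher in the fit restricted to them. The median of the 15 was 0.47, and the inhibitory Smad6 (1.69, limma adjusted p = 0.122) and the negative regulator Ldlrad4 (1.57, limma adjusted p = 0.134) did not pass. With the replicate block among better-covered genes 3 of the 15 were called higher, against 7.26% of those genes, so the count depends on the fit. They were Ski (limma adjusted p = 0.00833), Smad6 (0.0406) and Pmepa1 (log2 fold change 1.02, limma adjusted p = 0.0406), and Ldlrad4 did not pass (0.0921). The signal carriers Smad2, Smad3 and Smad4 had log2 fold changes of −1.0, 0.47 and −0.27, none of which passed.

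Of 27 genes known to respond to TGF-β, 10 were called higher, with a median of 1.05 over the list. The contractile genes Acta2 and Tagln were at 13354, 9411 and 20435 against 1701, 1363 and 346 normalized counts and at 1489, 631 and 1321 against 192, 110 and 40 (log2 fold changes of 3.88 and 3.49). Of the matricellular genes, Postn (periostin) was at 1576, 1546 and 4653 against 236, 399 and 112 (3.35) and Tnc (tenascin C) at 234, 313 and 450 against 59, 55 and 49 (2.54). Acta2, Tagln and Postn were also called relative to the fibroblast markers (2.21, 1.82 and 1.68), and Tnc was not (0.87). The remaining 6, of which the 3 collagens are themselves among the fibroblast markers, were Col1a2 (2.5), Col1a1 (2.21), Col3a1 (1.81), Tgfbi (1.6), Ctgf (1.56) and Fn1, none of which was called higher relative to the fibroblast markers. Of the genes that TGF-β induces early, Smad7 was at 81, 107 and 116 against 132, 69 and 172 normalized counts (log2 fold change −0.21), Klf10 at −0.60 and Skil at 0.33, none of which passed (limma adjusted p = 0.793, 0.562 and 0.642). The 2 uncalled genes with the largest differences were Hmga2 (−2.60, limma adjusted p = 0.108) and Timp1 (1.80, limma adjusted p = 0.186), of which Timp1 passed with the replicate block among better-covered genes (0.0406).

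**Figure D4:**
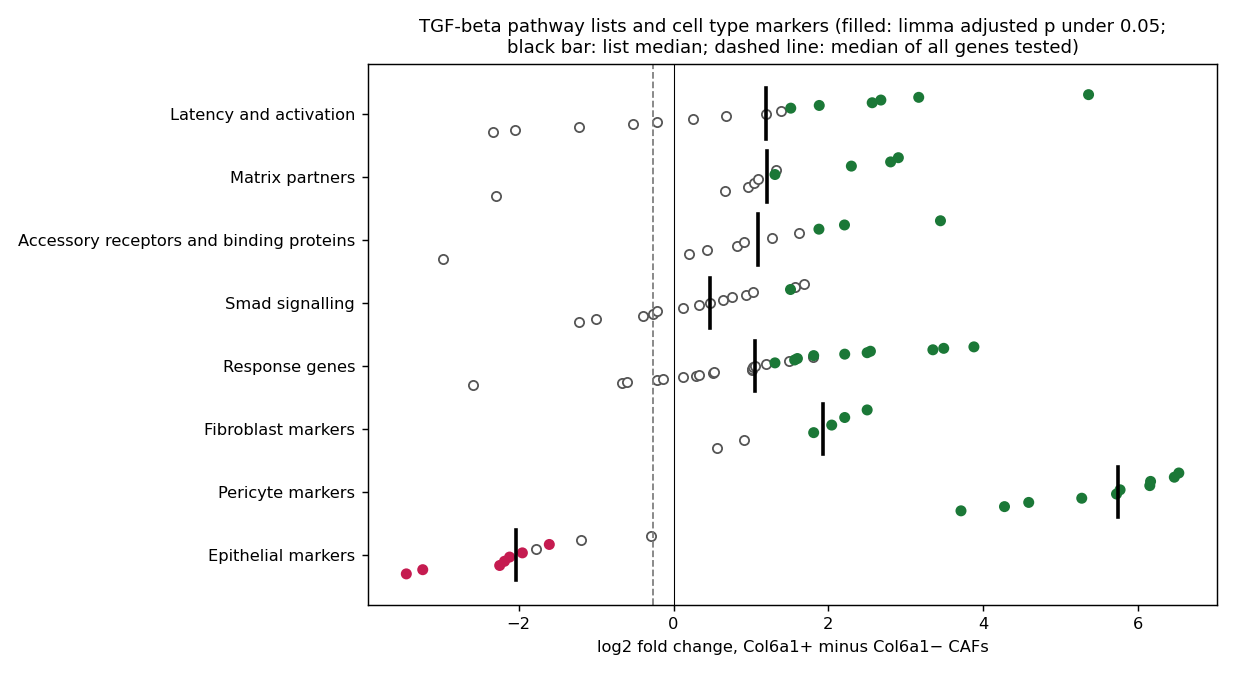
Log2 fold change of Col6a1+ over Col6a1− CAFs (x axis) for each gene of the 5 TGF-β pathway lists and of 3 cell type marker lists (y axis), filled where the limma adjusted p was under 0.05, with the list median as a bar and the median of all genes tested (−0.27) as a dashed line. Pathway medians lie between 0.47 and 1.20, the pericyte markers at 5.75 and the epithelial markers at −2.04.

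The genes whose profile over the 6 libraries was closest to that of a member were taken from the 8436 other genes whose mean reached 50 normalized counts, by Pearson correlation of log2 values. This is a description over 6 libraries that fall into 2 groups, so that any gene with a like difference between the groups correlates. For Tgfb2 they were the pseudogene Gm6166 (r = 0.999), the interferon-inducible Ifi203 (0.998) and Mef2c (0.998), a transcription factor of muscle and vascular cells at 281, 255 and 280 against 24, 28 and 33 normalized counts. For Tgfbr2 they were Gm21974 and Vkorc1 (0.995 each), whose counts are nearly the same in every library and may be the same reads, and the tetraspanin Tspan4 (0.994). For Ltbp1 they were Stbd1 (0.997), Wisp1 (0.996), a matricellular protein at 435, 365 and 462 against 96, 59 and 59 normalized counts, and the integrin chain Itga10 (0.996).

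**Figure D5:**
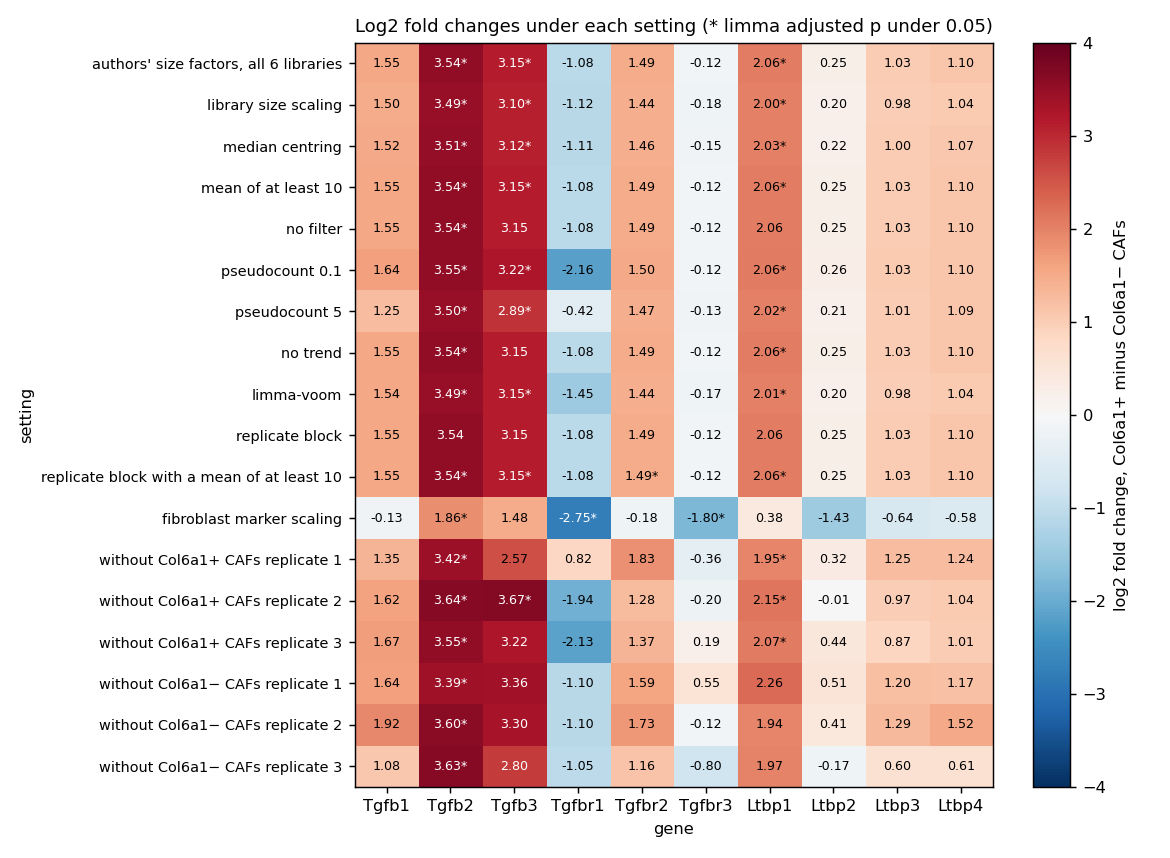
Log2 fold change of each of the 10 TGF-β genes (columns) on the authors' scale and in each of 17 alternative fits (rows), on a color scale from −4 to 4 with the value printed and an asterisk where the limma adjusted p was under 0.05. Tgfb2 has an asterisk in 16 of the 17, Ltbp1 in 11 and Tgfb3 in 8, and the row of fibroblast marker scaling turns 5 genes below 0.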

How the data were processed

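Libraries were made by 3′ mRNA sequencing (QuantSeq, Ion Proton). The authors' methods and processing notes name TopHat2, Bowtie2, mm10 and DESeq. The authors deposited, for 49548 genes, the log2 of the DESeq-normalized count plus 1 in each of the 6 libraries; every value gives a whole normalized count (tolerance 0.001). Whether counting used strand is not given in the sources used here. The table also holds the authors' own fold changes, p-values and FDR, and 6 columns of per-sample values, none used. Groups came from the labels.

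The log2 values were fitted with limma 3.58.1 (R 4.3.3; 2 groups, moderated variance with a trend) on 26402 genes (1 normalized count or more over all libraries), with Benjamini-Hochberg adjustment, and the fit was tested on simulated data. Fold changes are on the log2(normalized count + 1) scale and understate those of low genes. Read depth behind the scaled values is not known. Shares were compared by exact two-sided permutation tests.

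The design foresaw alternatives in scaling, filter (mean of at least 10, none), pseudocount (0.1, 5), variance model, replicate block and left-out libraries. Fibroblast marker scaling was chosen after seeing the data. Deviations of same-numbered libraries of the 2 groups had correlations of 0.245, 0.126 and 0.144 over 13515 genes, against −0.245 to 0.150 for other pairs. The study describes 3 tumor pools, and the numbers were taken to pair the libraries. The labels do not state this pairing, and the correlations do not settle it. Col6a1+ replicate 2 and Col6a1− replicate 3 reached 0.150, above the 0.126 and 0.144 of same-numbered libraries. Only the fits with the replicate block use this pairing, and their p-values measure the spread of the differences within pools only if the pairing holds. The other fits and the permutation tests treat the libraries as unpaired, and their p-values measure the spread between pools.

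The members and lists were chosen with earlier results of these data known. Genes named were all members, the called genes of each list and its 2 uncalled genes with the largest absolute log2 fold change at a mean of at least 10. Itgav, Mmp14, Pmepa1, the Smads and the early response genes were added after their values were seen. A few genes of the lists are not reported here by name. Promoters were matched by symbol for 8 of the 10 members (12 entries). Python 3.11.15, NumPy 2.4.6, pandas 2.3.3, SciPy 1.17.1 and Matplotlib 3.10.9 were used.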

Additional observations from a re-analysis of the deposited data

How the results depend on the processing

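Tgfb2 was called in 16 of 17 alternative fits, Ltbp1 in 11 and Tgfb3 in 8. Of the members, 3 were called higher with the authors' scaling, 1 without a filter on low genes, 0 with the replicate block and 1 with fibroblast marker scaling, which called 2 lower. Leaving out 1 library at a time gave 1 to 3. Over all genes the 703 called higher became 21 without a filter, 363 without a variance trend, 0 with the block, 236 with fibroblast marker scaling and 11 to 453 without a library, the lowest without Col6a1− replicate 1. The 517 called lower became 7 without a filter, 336 with a pseudocount of 0.1, 1006 with limma-voom, 0 with the block, 871 with the block among genes with a mean of at least 10, 17023 with fibroblast marker scaling and 1 to 442 without a library. Of the pathway genes, 23 were called higher in the first fit, 1 without a filter, 8 without a trend, 0 with the block, 31 with the block among genes with a mean of at least 10, 7 with fibroblast marker scaling (and 23 lower) and 0 to 12 without a library. The pairing by replicate number leaves 2 residual degrees of freedom, and the smallest adjusted p in that fit was 0.0612. The sign turned with fibroblast marker scaling for Tgfb1 (−0.13), Tgfbr2 (−0.18), Ltbp2 (−1.43), Ltbp3 (−0.64) and Ltbp4 (−0.58). Leaving out 1 library at a time gave −2.13 to 0.83 for Tgfbr1 (above 0 without Col6a1+ replicate 1), −0.17 to 0.51 for Ltbp2 (below 0 without Col6a1− replicate 3 and, at −0.015, without Col6a1+ replicate 2) and −0.80 to 0.55 for Tgfbr3 (above 0 without Col6a1− replicate 1 and, at 0.19, without Col6a1+ replicate 3). The turns with fibroblast marker scaling follow by construction, as centring takes the same amount from every gene of a library. The cause of the other changes was not tested. Fits that leave out a library drop genes at 0 in the other 5. Differences in shares, in percentage points, moved by less than the replicate spread, but by more than 1.5 times without single libraries: that of Tgfb2 (6.97) was 3.58 without Col6a1− replicate 1, 4.53 without Col6a1+ replicate 2 and 11.9 without Col6a1− replicate 3, and that of Tgfb3 (−1.28) ran from −4.57 without Col6a1+ replicate 1 to 1.39 without Col6a1− replicate 1, and was 1.25 without Col6a1+ replicate 2. That of Ltbp1 (4.75) was 2.89 to 6.39, of Ltbp3 (−0.54) −1.03 to −0.13 and of Ltbp4 (−3.65) −5.4 to −1.15.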
